A study of Rattus norvegicus with 3 samples.

Results

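The genes described here are the ribosomal protein genes of the rat cochlea, followed through 3 postnatal ages. They were chosen by symbol (Rpl or Rps, digits and at most 1 of the letters a, x, l or y) and by a level of 10 CPM (the UMIs of a gene scaled by all UMIs, as counts per 1000000) or more over all kept barcodes of the P1, P7 and P14 matrices. Of 79 rows of the matrices with such a symbol, 66 rows with 64 symbols passed, out of 21908 genes with a UMI in a kept barcode and 7750 genes at the same limit. The members were 38 rows of the large (60S) subunit, named Rpl, and 28 of the small (40S) subunit, named Rps. The level over all barcodes was used by the rule, so that the height of these genes is a description, while their change between ages was not used as such. The pooled level rests mostly on P1 and P7, with 98005495 and 93080129 kept UMIs against 11641065 at P14. A row high at P14 only, such as Rpl3l, could therefore fall under the limit.

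The libraries were made from the cochleae of untreated Sprague-Dawley rats that were 1, 7 or 14 days old (called P1, P7 and P14), and the tissue of many rats was pooled at each age into 1 library. The sample labels name greater epithelial ridge cells, but clusters with markers of mesenchyme, glia, endothelium, mural cells, epithelium, macrophages, lymphoid cells and neurons were found, and the libraries are treated as whole dissociated tissue. After the filter, 12779 barcodes remained at P1, 12581 at P7 and 5281 at P14, with medians of 6565, 6878 and 1614 UMIs. Between 16 and 53 kept barcode sequences were shared by a pair of libraries. With 1 library per age there was no replicate, so no test was made, age and library cannot be told apart, and the intervals in parentheses (exact, 95%, Poisson for CPM and Clopper-Pearson for shares) cover counting error only. The P14 library was the shallowest, and a few rows named AC134224 held 6.81% of its UMIs against 2.56% at P1 and 2.14% at P7. Without them in the denominator the ribosomal protein genes took 18.9% at P1, 13.9% at P7 and 11.46% at P14, in the same order.

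A ribosome is built from ribosomal RNA and ribosomal proteins, most of them in a single copy. The protein genes are therefore transcribed at high and coordinated levels, above all in cells that grow or divide. Their mRNAs carry at the 5′ end a terminal oligopyrimidine (TOP) tract, a C at the first base followed by a run of C and T, through which mTOR signalling and the binding protein Larp1 set how much of the mRNA is translated. In the rat cochlea the first postnatal weeks are the time up to the onset of hearing, in which the sensory epithelium matures and the surrounding tissue is remodelled.

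Runs of C and T near the annotated starts of these genes were counted. RefSeq promoter sequences of the GRCr8 assembly were matched by symbol for 51 of the 64 member symbols (52 sequences). The matrices use another build (rn6), so that only gene names were carried over. A run of 7 or more C or T on the gene's own strand was found in 36 of the 52 windows of 30 bases around the start (69.2%), against 17.9% of all 33469 promoter windows. On the opposite strand it was in 3.85% of the member windows and 20.04% of all. The letters CTTTC were in 38.5% of the member windows and 3.59% of all. A run could lie anywhere in the window, and those of Rpl38 and Rpl5 end before the annotated start. A match is a description of the letters, and neither a measured start of transcription nor a TOP tract at the first base of the mRNA. Shown 5′ to 3′ are chosen genes with high or low P14 to P1 ratios or a high level, and Rps27l. Runs of 7 or more C or T are in capitals and the annotated start is at base 16. The windows of Rpl41, Rps12 and Rpl3 held no such run and are not printed, so the windows shown are no measure of how common runs are.

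Rpl38 (chr10:100200420-100200449, plus strand): cttcgTTCTTTTTCCgttgttcggtgctcg
Rps28 (chr7:15311319-15311348, minus strand): gcatcccctgctcacgtgaCTCCTCTCCgc
Rpl26 (chr10:54109677-54109706, plus strand): ctcgtgtcaacttacagaaccggaagtcgc
Rpl5 (chr14:1995211-1995240, minus strand): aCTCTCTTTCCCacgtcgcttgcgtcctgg
Rpl31 (chr9:49143096-49143125, plus strand): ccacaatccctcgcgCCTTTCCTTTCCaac
Rps15 (chr7:10068101-10068130, minus strand): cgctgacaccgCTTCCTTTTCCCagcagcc
Rps2 (chr10:14251833-14251862, plus strand): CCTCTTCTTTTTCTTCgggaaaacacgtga
Rpl23 (chr10:83272170-83272199, minus strand): actaaCTTCCTTTCTgaCTCTTTCCggacg
Rps27 (chr2:177964592-177964621, minus strand): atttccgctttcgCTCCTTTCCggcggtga
Rps27l (chr8:76443643-76443672, plus strand): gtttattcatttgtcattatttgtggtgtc

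Among the matched member rows, the 37 with such a run had a median log2 ratio of P14 to P1 of -0.99, and the 15 without one had a median of -0.77. Members with high and low ratios stood in both groups, since Rpl38 and Rpl5 both have a run and Rpl26 and Rps12 have none.

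As a group, the ribosomal protein genes took 18.4% of all UMIs at P1 (18.43 to 18.44), 13.6% at P7 (13.55 to 13.56) and 10.7% at P14 (10.66 to 10.70). With each barcode thinned to 1000 UMIs and shallower ones left out, they took 18.4%, 13.4% and 9.10%. The share was lower at each later age, and a share is relative, so that less ribosomal protein mRNA and more of other mRNA cannot be told apart. Barcodes of 1 library differed widely, and the middle 50% of them ranged from 15.5% to 21.6% at P1, from 11.3% to 15.3% at P7 and from 5.45% to 10.6% at P14. Of the 131 genes at 1000 CPM or more over all barcodes, 47 were members, and no member was among the 2000 most variable genes used for clustering. Over all barcodes the subunits kept nearly the same balance, with the 60S genes at 56.8%, 58.1% and 57.8% of the members' UMIs at P1, P7 and P14. Within the cell classes described below, this part was higher at P14 than at P1 wherever both ages were given. It was 56.8% and 62.3% in epithelium-like, 56.5% and 59.7% in mesenchyme-like, but 56.0% and 56.2% in endothelial-like barcodes. The order of the 66 members by level was nearly the same at P7 as at P1 (Spearman's rho 0.96 across genes, which are not independent) and less so at P14 (0.80).

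At P7, 16 of the 66 members were lower than at P1 past 1.5-fold and 0 were higher, where 13.8% of the 7750 genes were lower and 21.7% higher past the same fold. Scaled by the median of ratios, 26 members were lower. At any size, 63 of the 66 members were lower, against 40.9% of all genes. The median member log2 ratio was -0.40, and the median of all genes was 0.12. So most members had a ratio of moderate size in 1 direction.

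At P14, 44 of the 66 members were lower than at P1 past 1.5-fold (21.1% of all genes) and 5 were higher (30.8% of all genes). At any size, 53 members were lower (45.1% of all genes). The median member log2 ratio was -0.87, and that of all genes was 0.10. The 84 other genes at 1000 CPM or more had a median of -0.61, so that other abundant genes had low ratios as well. The 60S and 40S members had medians of -0.90 and -0.81. From P7 to P14, 29 members were lower past 1.5-fold (23.0% of all genes) and 11 were higher (25.6%). The median member log2 ratio was -0.46 there, and the 84 other genes at 1000 CPM or more had a lower median, -0.68. These comparisons share libraries and are given side by side.

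**Figure D1:**
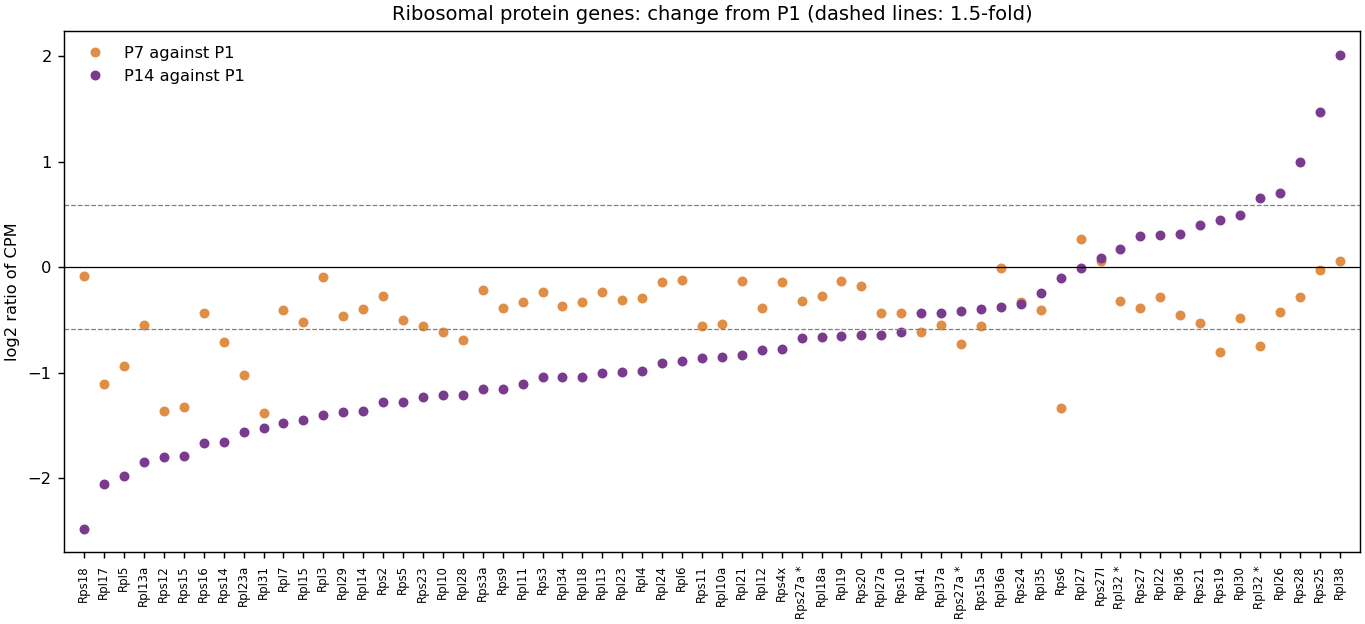
Log2 ratio of CPM (y axis) of 64 of the 66 member rows (x axis, ordered by the P14 ratio; * marks a symbol with several rows) for P7 against P1 (orange) and P14 against P1 (purple), with dashed lines at 1.5-fold. All but 3 of the P7 points lie below 0, while the P14 points spread from -2.48 (Rps18) to 2.01 (Rpl38).

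The most abundant member was Rpl41, which encodes the smallest protein of the ribosome, a short basic peptide of the large subunit. Its level was 10169 CPM at P1, 6655 at P7 and 7548 at P14. Rpl23, a large subunit protein that can bind Mdm2, was at 5459, 4403 and 2750 CPM, and Rpl27a was at 5510, 4076 and 3523 CPM. Rps2, near the mRNA entry of the small subunit, was at 5177, 4274 and 2131 CPM. These 4 of the 5 most abundant members were highest at P1, and Rpl41 alone among them was higher at P14 than at P7.

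Among the members with the lowest P7 to P1 ratios were Rpl31 (1004 and 384 CPM at P1 and P7, log2 ratio -1.39), Rps12 (4062 and 1575 CPM, -1.37), Rps6 (85.5 and 33.8 CPM, -1.34) and Rps15 (2942 and 1176 CPM, -1.32). Rps6 is the small subunit protein that S6 kinases phosphorylate downstream of mTOR. It stood apart from the others at P14, where its 79.6 CPM (74.6 to 84.9) was near its P1 level, while Rps12 and Rps15 were lower still, at 1171 and 853 CPM. The highest P7 to P1 ratios were those of Rpl27 (0.26), Rps27l (0.06), Rpl38 (0.05), Rpl36a (-0.01) and Rps25 (-0.03), and none of these passed 1.5-fold.

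The lowest P14 to P1 ratios were led by Rps18, a row with few UMIs (48.3 CPM at P1 and 8.68 CPM at P14, from 101 UMIs, log2 ratio -2.48). Next came Rpl17 (3319, 1545 and 799 CPM at P1, P7 and P14, -2.06), Rpl5 (1794, 936 and 457 CPM, -1.97), Rpl13a (408, 279 and 113 CPM, -1.85) and Rps12 (-1.79). Rpl5 forms with 5S rRNA and Rpl11 the particle that restrains Mdm2 when ribosome assembly is disturbed, and its partner Rpl11 was at 4534, 3612 and 2111 CPM (-1.10). Rpl13a also acts in the translational silencing of inflammatory mRNAs. Each of these genes had its lowest level at P14.

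A small set went the other way. Rpl38, a large subunit protein known for its part in the translation of Hox mRNAs, was at 320 CPM at P1 (317 to 324), 333 at P7 (329 to 336) and 1290 at P14 (1269 to 1311), a log2 ratio of 2.01. Rps25, needed for initiation at several viral internal entry sites, was at 241, 236 and 666 CPM (1.47). Rps28 was at 2145, 1758 and 4283 CPM (1.00), Rpl26, which promotes p53 translation, was at 958, 715 and 1562 CPM (0.71), and 1 row of Rpl32 (ENSRNOG00000010746) was at 741, 440 and 1165 CPM (0.65). In all 5 the P14 level was above both earlier ages, whereas P1 and P7 differed by less than 1.5-fold in Rpl38, Rps25, Rps28 and Rpl26. The other row of Rpl32, at 369, 297 and 417 CPM, had a P14 to P1 log2 ratio of 0.17. The rows of Rpl32 were not summed by age, so the call holds for a row and not for the gene. Thinned to 1000 UMIs a barcode, or as a mean over barcodes, 3 members were higher past 1.5-fold.

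Rps27l is the only member whose symbol carries the letter l, and it is a p53-responsive paralog of Rps27, from which it differs by few residues. Rps27l was at 259 CPM at P1, 270 at P7 and 276 at P14, nearly level, and Rps27 at 3479, 2667 and 4268 CPM. In the windows printed above, Rps27 has a C and T run and Rps27l has none.

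The limit of 10 CPM lay in a gap. The lowest members were Rps18 (44.8 CPM over all barcodes), Rps6 (61.4) and Rps10 (118), and the highest rows below it were a further row of Rpl21 (2.85), Rpl39l (1.99) and Rpl35a (0.92). Of the 13 rows under the limit, 3 had no UMI in a kept barcode, those of Rpl8, Rpl39 and 1 of Rpl7a.

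Some of these low rows, such as Rps18, Rps10 and Rpl35a, had partners elsewhere in the matrices. The copies found included none for Rps6, Rpl8, Rpl39 or Rpl7a. RefSeq lists 17 LOC rows at 10 CPM or more as copies of ribosomal protein genes. With Rps18l1, Rps10l1 and the paralogs Rpl22l1 and Rpl36al there were 21 rows, called copy rows here, all chosen after their values were seen. Rpl22l1 and Rpl36al count in the share with copy rows but were not summed with Rpl22 and Rpl36a. Rps18l1 was at 5097, 4091 and 1943 CPM, where Rps18 had 48.3, 45.7 and 8.68 CPM. Rps10l1 was at 2037, 1360 and 1378 CPM, where Rps10 had 137, 101 and 89.3 CPM. Of the fixed list of 80 cytoplasmic ribosomal proteins, 4 symbols are not in the matrices (Rps7, Rps13, Rps26 and Rpl37), and each of the 4 has a copy row at high level, such as LOC100361854 (Rps26l5) at 3917, 1767 and 2487 CPM. How reads were shared out between near-identical rows is not given in the sources used here, so that levels of single rows of these genes are uncertain.

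The direction of a gene could depend on this. Rpl31 had a P14 to P1 log2 ratio of -1.53, but its copy row LOC103690821 (Rpl31-ps12) was at 356, 370 and 1527 CPM, and the sum of both rows had a ratio of 0.46. For Rps18 the sum with Rps18l1 gave -1.40 in place of -2.48. The Rps29 copy row LOC108350501 was at 3209, 1850 and 5326 CPM, and the sum with the Rps29 row had a ratio of 0.73. Over 18 genes with copy rows, the summed level was lower at P7 than at P1 in 17 and lower at P14 than at P1 in 12. With the copy rows added, the share of UMIs was 21.2% at P1, 15.6% at P7 and 13.0% at P14.

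**Figure D2:**
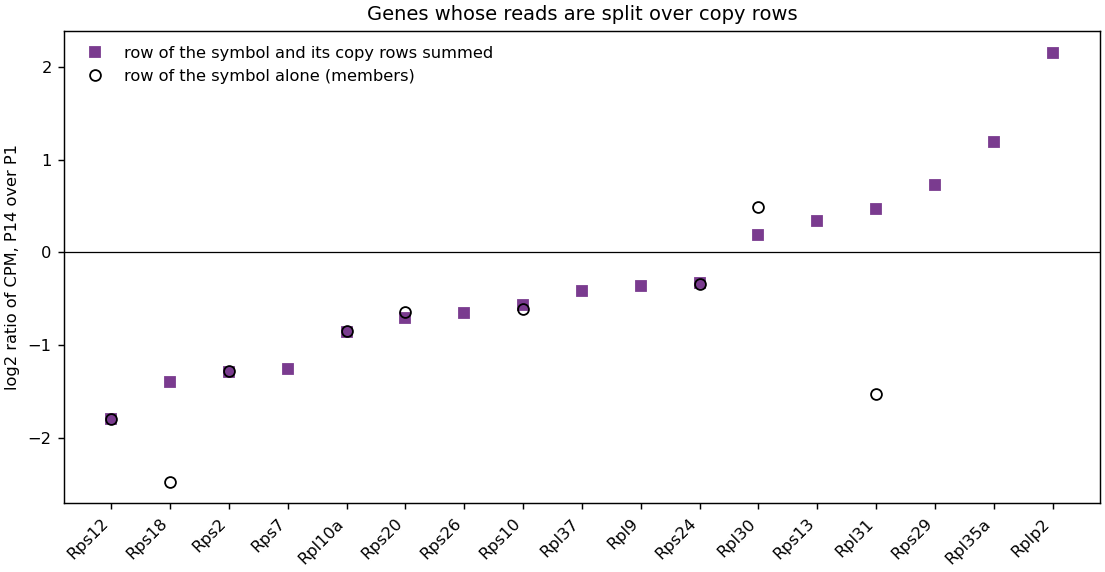
Log2 ratio of CPM, P14 over P1 (y axis), of 17 of the 18 ribosomal protein genes with copy rows (x axis), for the sum of the gene's row and its copy rows (squares) and for the gene's own row where it is a member (open circles). The circle and square lie within 0.1 of each other except for Rpl31 (-1.53 and 0.46), Rps18 (-2.48 and -1.40) and Rpl30 (0.49 and 0.18).

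Levels by age were compared within broad cell classes, since the mix of cells changed between the libraries. Clusters were named by markers that stood out in them, by criteria settled once the clusters had been looked at, and a class was used at an age with 50 or more barcodes. Mesenchyme-like barcodes (3475, 5702 and 2902 at P1, P7 and P14) and glia-like barcodes (1916, 3563 and 360) were the largest classes. The largest cluster of these classes differed between the 3 ages (0, 3 and 7 for mesenchyme-like, where cluster 3 held 39.3% of the class at P7, and 5, 2 and 19 for glia-like), whereas the endothelial-, mural- and macrophage-like classes were 1 cluster each and the epithelium-like class was cluster 16, with a small cluster of hair cell markers at P1. Clusters that were not named held 6041, 2419 and 462 barcodes.

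Within the classes the share of ribosomal protein UMIs was lower at P7 than at P1 in 6 of 6 and lower at P14 than at P1 in 6 of 6. It was 19.9%, 14.1% and 7.83% at P1, P7 and P14 in mesenchyme-like barcodes, and 15.4%, 12.0% and 5.53% in glia-like barcodes. Endothelial-like barcodes had 16.2%, 13.5% and 9.01%, and mural-like barcodes had 13.9%, 11.1% and 6.72%. In the epithelium-like class, which holds the markers of the cochlear duct epithelium, it was 16.6%, 12.0% and 6.31%. The unnamed clusters together, which are no class, had 19.8%, 14.4% and 16.4%, so their share was higher at P14 than at P7. The median log2 ratio over the 6 classes was -0.34 for P7 against P1 and -1.20 for P14 against P1.

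Macrophage-like barcodes differed least between the ages, at 15.1% (15.04 to 15.16), 13.9% (13.85 to 13.97) and 13.3% (13.23 to 13.41). The log2 ratio of P14 to P1 was -0.18 there against -0.85 to -1.48 in the other 5 classes. It was positive (0.19 to 0.21) at a resolution of 0.4 or 1.2 and without ribosomal protein genes among the variable genes, so its direction depends on the clustering. Scrublet, a doublet caller, marked 15.1% of the macrophage-like barcodes at P1, 14.9% at P7 and 0% at P14, where it marked 2 of 5281 barcodes in all.

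At P14 the order of the classes was lymphoid-like (21.8%), macrophage-like, endothelial-like, mesenchyme-like, mural-like, epithelium-like and glia-like (5.53%), with no overlap of counting intervals between neighbours. The lymphoid-like class, 287 barcodes at P14 with Igll1, Vpreb2 and Cd79b among its leading genes, also had the highest dividing-cell marker level of the named P14 clusters. Clusters 12 (unnamed) and 10 (glia-like), seen mostly at P1 and P7, had higher dividing-cell marker levels. Their shares were 16.1% and 14.5% at P1 and 11.7% and 11.6% at P7. Over all kept barcodes the shares were 18.4% at P1 and 13.6% at P7. A link between division and the share was not tested. At P1 the order was mesenchyme-like, epithelium-like, endothelial-like, glia-like, macrophage-like, mural-like and neuron-like, the last at 11.4% (11.36 to 11.41) in 382 barcodes. A lymphoid-like class at P1 and a neuron-like class at P14 had fewer than 50 barcodes and are not given. Without the lymphoid-like class and the unnamed clusters, the share at P14 was 8.02% in 4532 barcodes.

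**Figure D3:**
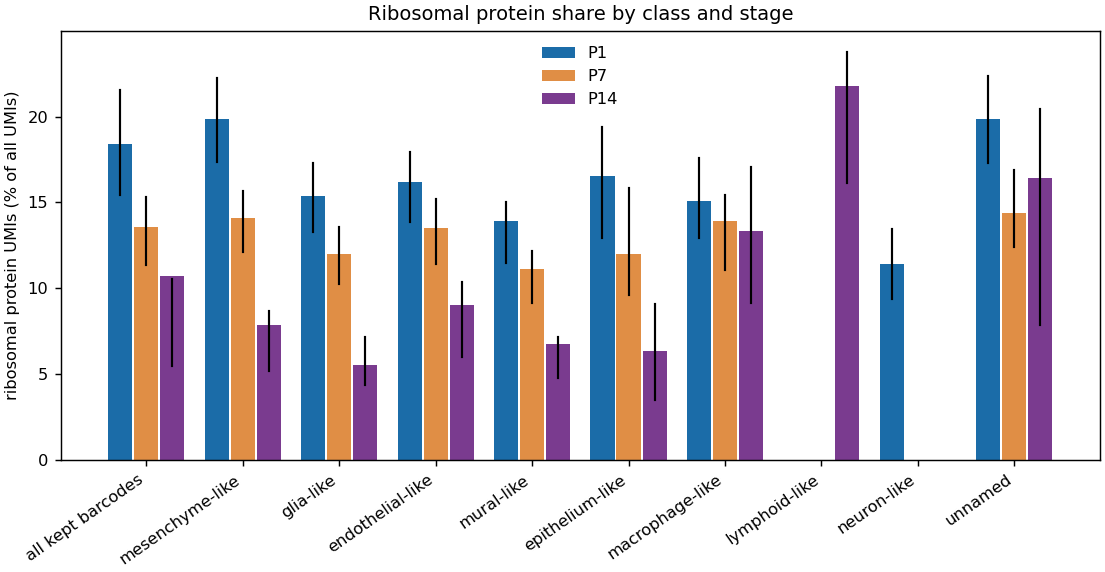
Ribosomal protein UMIs as a percent of all UMIs (y axis) for all kept barcodes, 8 classes and the unnamed clusters (x axis) at P1 (blue), P7 (orange) and P14 (purple), where bars are summed shares and black lines span the middle 50% of barcodes. The bars step down with age in 6 classes, least in the macrophage-like class (15.1% to 13.3%), and the lymphoid-like bar at P14 reaches 21.8%. The bar of the unnamed clusters is higher at P14 (16.4%) than at P7 (14.4%).

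The same held cluster by cluster for P7. Of 17 clusters with 50 or more barcodes at both P1 and P7, all 17 had a lower share at P7. The unnamed cluster 14 is among them, of which Scrublet marked 89.1% at P1 and 84.1% at P7. For P14 against P1, 4 of 4 clusters were lower. These 4 make up the endothelial-, mural-, epithelium- and macrophage-like classes, so they repeat the class comparison above and add nothing to it. The same 4 are also among the 17 clusters compared at P7. At P1 the clusters ranged from 11.4% to 22.2%, at P7 from 10.0% to 18.0% and at P14 from 5.38% to 21.8%. The highest share at P1 was in the unnamed cluster 8, led by Cav1, Sp5 and Olfm1 (22.2%), and cluster 4, led by Aldh1a2 and Calb2, followed at 21.0%. The unnamed cluster 21 at P14, led by Lyz2 and Srgn, had 20.2%.

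Counts of single members within classes were made over the 64 members at 100 CPM or more. The median log2 ratio of all genes at that limit for P14 against P1 was itself below 0 in each class, from -0.43 in epithelium-like to -0.08 in macrophage-like barcodes, and that of the members was -1.59 and -0.32 in the same classes. For P14 against P1, 51 of 64 were lower past 1.5-fold in mesenchyme-like barcodes (35.5% of all genes at that limit), 51 in glia-like (40.9%), 46 in endothelial-like (36.3%), 47 in mural-like (38.4%), 49 in epithelium-like (44.3%) and 19 in macrophage-like barcodes (26.4%). Higher past 1.5-fold were 2 members in mesenchyme-like (20.5% of all genes), 2 in glia-like (17.9%), 6 in endothelial-like (18.4%), 3 in mural-like (18.5%), 2 in epithelium-like (18.4%) and 12 in macrophage-like barcodes (25.6%). For P7 against P1, 20 members were lower past 1.5-fold in mesenchyme-like (11.6% of all genes), 12 in glia-like (11.7%), 9 in endothelial-like (10.7%), 15 in mural-like (11.9%), 16 in epithelium-like (12.7%) and 7 in macrophage-like barcodes (7.38%). None of the 64 members was higher past 1.5-fold at P7 in these 6 classes, where 18.8%, 15.0%, 12.9%, 10.1%, 18.4% and 19.7% of all genes were, in the same order.

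Of the same 64 members, 42 were lower at P14 than at P1 in each of the 6 classes (33.1% of all 1491 genes at that limit) and 3 were higher in each (13.5%). With the clusterings that turned the macrophage-like ratio positive, 27 to 28 were lower in each (29.0% to 29.1%). The 3 were Rpl38, with log2 ratios from 1.53 in mesenchyme-like to 2.27 in macrophage-like barcodes, Rps25 (0.72 in glia-like to 2.10 in macrophage-like) and Rps28 (0.20 in epithelium-like to 1.37 in macrophage-like). Rpl17 was lower in each, from -2.92 in glia-like to -1.30 in macrophage-like barcodes, as was Rpl5, from -2.73 to -1.26. A further 11 of the 64 were higher in macrophage-like barcodes and lower in the other 5 classes (7.58% of all genes). This count depends on the clustering, with 25 to 26 members (10.9% to 11.5% of all genes) in those 3 settings and 8 (5.43%) with 20 principal components.

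**Figure D4:**
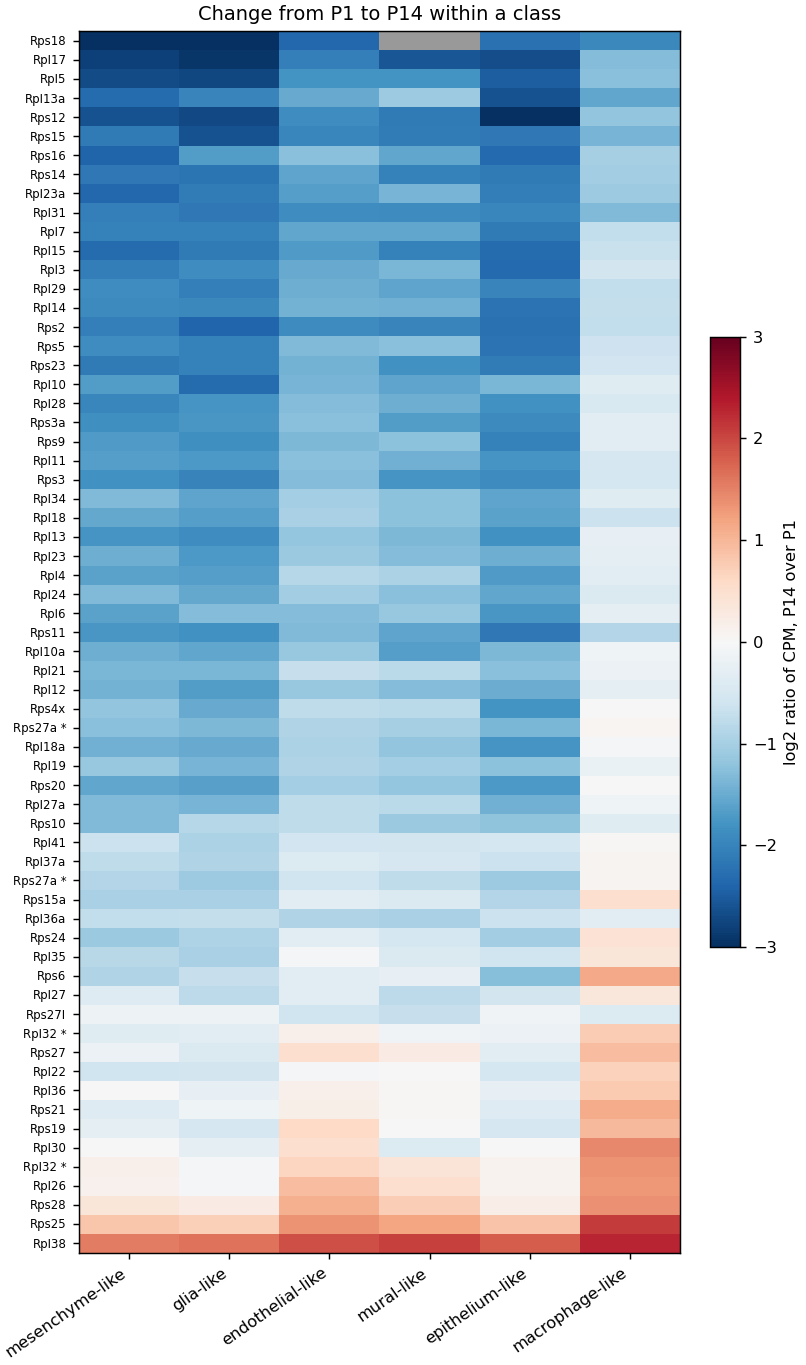
Log2 ratio of CPM, P14 over P1 (colour, red higher and blue lower at P14, limited to the range of the colour bar), for 64 of the 66 member rows (y axis, ordered by the ratio over all barcodes) in 6 classes (x axis); grey marks a row with 0 UMIs in 1 group. The bottom rows Rpl38, Rps25 and Rps28 are red in every column and deepest in the macrophage-like column. That column is mostly the palest in the blue rows.

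Members also differed in how evenly they were spread over classes. Relative to the median member of each class, the median member moved over a range of 0.66 on the log2 scale across the 8 classes, and 18 of 66 had a range over 1. The 6 with the largest range were Rps25 (2.29), Rpl38 (2.09), Rpl22 (1.93), Rps28 (1.88), Rps19 (1.76) and Rpl32 (ENSRNOG00000010746, 1.75), each highest in the lymphoid-like class. That class was present at P14 only and the others were summed over the ages, so that class and age cannot be told apart in this range. Within P14 alone these 6 had ranges from 0.37 to 1.10 over 7 classes, and 2 of them, Rpl22 and Rps19, were highest in the lymphoid-like class. Rpl38 was lowest there, at -0.67 from the median member on the log2 scale, against -0.37 in macrophage-like, 0.06 in glia-like and 0.43 in endothelial-like barcodes, so its place in the lymphoid-like class was not high once the age was the same. Rpl22, a large subunit protein whose loss in mice blocks the development of αβ T cells, was at 0.21 in lymphoid-like and at -0.34 in epithelium-like barcodes, its lowest at P14. Rps19, the gene most often mutated in Diamond-Blackfan anaemia, was at -2.18 in lymphoid-like, -2.30 in endothelial-like and -2.77 in glia-like barcodes.

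**Figure D5:**
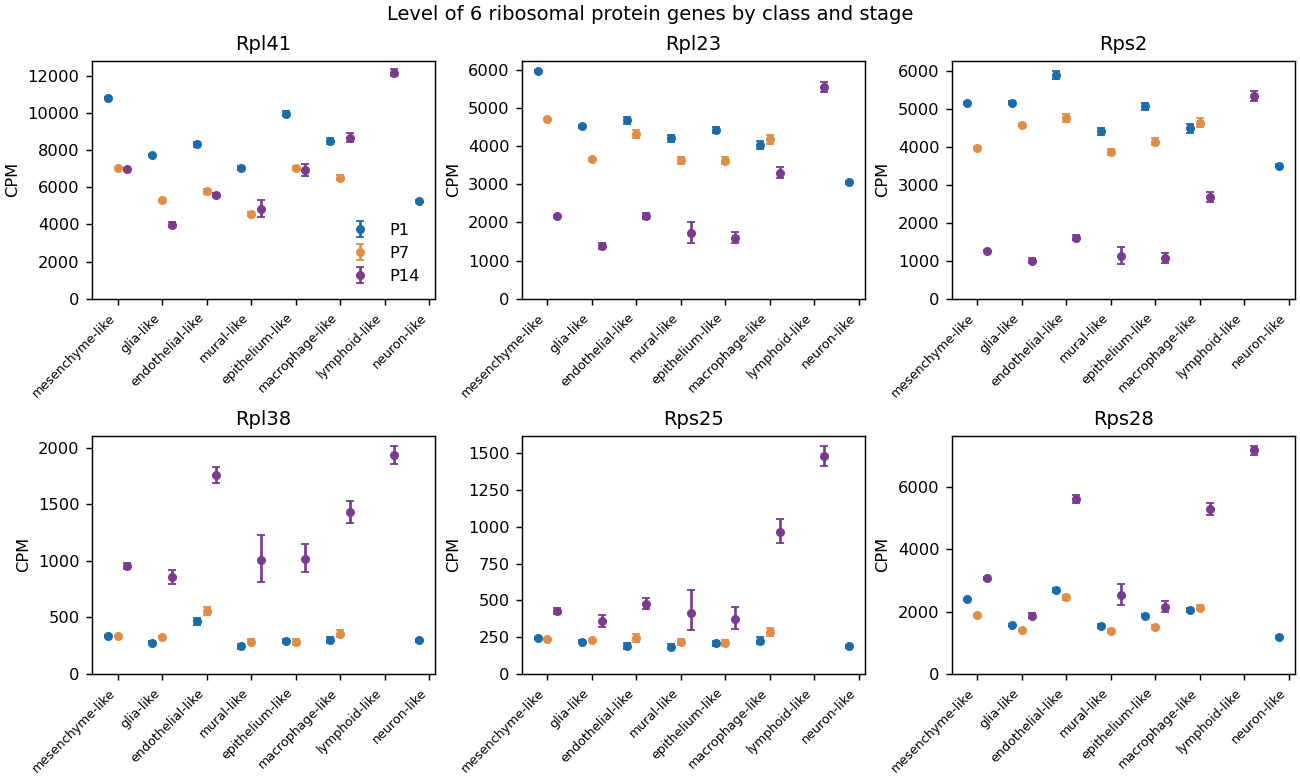
CPM (y axis, from 0) of Rpl41, Rpl23, Rps2, Rpl38, Rps25 and Rps28 in 8 classes (x axis) at P1 (blue), P7 (orange) and P14 (purple), with exact 95% Poisson intervals as bars. Rpl23 and Rps2 are lowest at P14 in the 6 classes seen at all ages, and Rpl38 and Rps25 are highest there at P14.

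Rpl3l, a paralog of Rpl3 known from skeletal muscle and heart, is under the limit and is named because its values stood out. It was at 0.24 CPM at P1, 0.12 at P7 and 12.6 at P14 (10.7 to 14.8). Of its 147 UMIs at P14, 96 lay in lymphoid-like barcodes (76.6 CPM) and 40 in unnamed clusters, and Rpl3 was at 2758 CPM in the same lymphoid-like barcodes. At P14 it had 6 UMIs in mesenchyme-like, 2 in endothelial-like and 2 in macrophage-like barcodes, and 0 in mural-like and epithelium-like ones.

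Other genes of the translation apparatus were counted in lists chosen with earlier results of these data known, to be read beside the 21.1% lower and 30.8% higher among all genes at P14. Among the ribosomal proteins that the symbol rule leaves out, 6 rows were at 10 CPM or more and all 6 were lower at P14 than at P1, 4 of them past 1.5-fold, with a median log2 ratio of -1.14. Rplp0, of the stalk that recruits elongation factors, was at 7881, 6270 and 2505 CPM, and Rack1, a signalling scaffold on the small subunit, was at 1788, 969 and 380 CPM. Elongation and initiation factors and other TOP genes had 10 of 13 lower past 1.5-fold and 1 higher, with a median of -1.12. Eef1g was at 1298, 875 and 305 CPM, Tpt1 at 7222, 6649 and 3093 CPM, and Pabpc1, the poly(A)-binding protein, was the 1 higher, at 177, 113 and 278 CPM.

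The genes that build ribosomes had medians nearer to 0. Of 19 biogenesis genes, 6 were lower past 1.5-fold at P14 and 0 were higher, with a median of -0.28. Npm1 was at 1442, 1127 and 937 CPM and Ncl at 569, 281 and 294 CPM. Of 69 mitochondrial ribosomal protein genes, which serve the separate ribosome of the mitochondrion, 15 were lower and 8 higher past 1.5-fold at P14 (median -0.22), where the lower share is near that of all genes. At P7 13 were higher and 1 lower (median 0.25), where 21.7% of all genes were higher and 13.8% lower. Of 9 genes of the growth signalling that acts on TOP mRNAs, 3 were higher and 1 was lower at P14 (median 0.13), with the higher share near that of all genes. The lower one was Larp1, at 39.3, 11.1 and 14.1 CPM, and Myc, a driver of ribosomal gene transcription, was at 11.7, 30.6 and 32.2 CPM.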

How the data were processed

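Per the labels and the study's methods, tissue was dissociated and captured with 10x Genomics 3′ v3 chemistry. The authors deposited whole-number UMI counts per gene and barcode, made with Cell Ranger (header version 3.1.0) on rn6, without normalization. The annotation and the rule for calling cells are not given in the sources used here. Barcodes with more than 500 and fewer than 5000 genes and under 25% Mt- UMIs were kept. Counts were summed per age, class or cluster and divided by all UMIs (CPM). "Past 1.5-fold" stands in for a test. Clustering used Seurat 5.3.0 (R 4.3.3; 2000 variable genes, 10 principal components, resolution 0.8). A cluster was named when 3 or more markers of 1 class stood out (in 25% of barcodes and 2-fold over the rest). They had to be at least 2 times as many as those of the next class. Clusters stayed unnamed when another class had more markers among the 10 leading genes, or when over 50% were doublets. Shallow clusters without a marker of their class among the leading genes stayed unnamed too. Python 3.11.15, numpy 2.4.6, scipy 1.17.1, pandas 2.3.3, scanpy 1.11.5 (Scrublet) and matplotlib 3.10.9 were used. Poisson counts for P14 against P1 over 7750 genes were simulated from 1 shared profile, with planted changes well past 1.5-fold in 200 genes. Of these, 100% were called in the right direction, and 0.0132% of the others passed the fold. The simulation held counting error only, with no difference between libraries or cell mixes, so it gives no error rate for these data. Members, lists and markers were chosen with earlier results of these data known. Named were the 5 highest members, those nearest the limit, those with an l suffix, the 5 highest and lowest ratios and the 6 widest over classes, apart from 2 genes that are not reported here.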

Additional observations from a re-analysis of the deposited data

Results flagged for a closer look

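Barcodes that the filter left out also held ribosomal protein UMIs. Their share was 14.7% at P1 (1289 barcodes), 7.45% at P7 (1920 barcodes) and 5.17% at P14 (1077 barcodes), lower than in the kept barcodes of each age. Their mitochondrial share was 11.6%, 25.7% and 14.8%, and its part in this was not tested.

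For 2 members the direction from P1 to P14 differed between classes past 1.5-fold on both sides, which was not tested because each class has 1 library per age. Rps6 had a log2 ratio of 1.15 in macrophage-like barcodes (75 UMIs at P1 and 68 at P14) and -1.27 in epithelium-like barcodes (201 and 8 UMIs). Rpl22 had 0.68 in macrophage-like and -0.60 in mesenchyme-like barcodes.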

How the results depend on the processing

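The order of the shares (P1 over P7 over P14) was the same under each of the 8 settings that gave all 3. The shares at P1, P7 and P14 were 19.3%, 14.0% and 11.0% with a mitochondrial limit of 10%, 19.9%, 14.9% and 11.2% without Mt- genes in the denominator, 18.4%, 13.4% and 8.86% as a mean over barcodes, 21.3%, 15.8% and 12.1% for the fixed list, 21.2%, 15.6% and 13.0% with copy rows and 18.9%, 13.9% and 11.46% without AC134224 rows, the last pair chosen after seeing the data. Thinned to 1000 UMIs they were 13.4% at P7 and 9.10% at P14, and 13.5% at P7 without Scrublet doublets.

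The median member log2 ratio of P7 to P1, in the same order of settings, was -0.43, -0.39, -0.41 (mean over barcodes), -0.41 (no AC134224 rows), -0.41 (thinned), -0.40 (no doublets), -0.40 (limit of 1 CPM) and -0.53 (median of ratios). That of P14 to P1 was -0.89, -0.92, -1.19 (mean over barcodes), -0.89 (fixed list), -0.81 (no AC134224 rows), -1.13 (thinned), -0.86 (limits of 1 and 50 CPM) and -0.98 (median of ratios). The median over classes was -1.09, -1.23, -1.11 (no AC134224 rows), -1.26 (thinned, over 5 classes), -1.31 (median of ratios over genes with UMIs in both groups) and -1.14 (20 principal components). For the macrophage-like class the ratio was 0.20 without ribosomal protein genes among the variable genes (which removed 3 genes so named, none a member), 0.21 at resolution 0.4 and 0.19 at 1.2. The cause was not tested.

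Members lower at P7 past the fold numbered 26 by median of ratios and 7 past 2-fold. At P14, 28 were lower and 2 higher past 2-fold, and 3 were higher as a mean over barcodes and when thinned. At a limit of 1 CPM, 1 was higher at P7. Thinning left out 37, 193 and 735 barcodes. No paired analysis was possible because each age has 1 library. The depth of P14 limits single rows such as Rps18.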
